A study of Mus musculus with 16 samples.

Results

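Ventricles of mouse pups at postnatal day 23 (P23) were compared with ventricles at postnatal day 4 (P04) across every class of RNA that small RNA libraries had captured, with weight on the RNAs that are not miRNAs. The 8 libraries of these 2 ages were chosen by the labelled time point from the 16 libraries of the series, which also hold P01 and P09. Each library came from the ventricles of 1 untreated C57BL/6JOlaHsd pup, of either sex, and 4 pups were taken per time point. P04 pups had fed on milk alone, whereas P23 pups also had access to a general mouse diet, so age and diet cannot be told apart. The SMARTer smRNA-Seq kit puts a poly(A) tail on RNA 3' ends before cDNA synthesis, and the reads therefore fell on fragments of long RNAs as well as on small ones.

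In the weeks that separate these ages, mouse cardiomyocytes stop dividing and grow by enlargement, exchange fetal for adult isoforms of their contractile proteins, expand their mitochondria and come to rely on the oxidation of fatty acids. Small nucleolar RNAs (snoRNAs) guide the chemical modification of rRNA, small nuclear RNAs (snRNAs) form the spliceosome, and both belong to the equipment of every cell. Mitochondria carry their own small genome, which encodes rRNAs, tRNAs and a few subunits of the respiratory chain, whereas all other mitochondrial proteins are encoded in the nucleus.

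The P04 libraries held 3336621 to 4478212 counts and the P23 libraries 4694722 to 5553530. Of 53801 genes in the table, 25080 had no count in the 8 libraries and 10742 passed the filter on low counts and were tested. Levels below are normalized counts (counts scaled with TMM factors to a common library size), listed in the order of libraries 1, 3, 4 and 6 at P04 and libraries 1, 5, 6 and 8 at P23, and they compare libraries, not genes. A gene was said to have risen or fallen at P23 when edgeR's quasi-likelihood test gave a Benjamini-Hochberg adjusted p under 0.01 and a fold change over 1.8, which is 0.85 on the log2 scale. By this rule 2376 genes changed (22.1% of those tested), of which 1026 rose (9.55%) and 1350 fell (12.6%). The 4 P23 libraries did not overlap with the 4 P04 libraries in 980 of the risen and 1271 of the fallen genes, and 35.6% of all tested genes had no overlap in either direction. Whole tissue was sequenced, so fewer cells of a type and less RNA per cell cannot be told apart in any of the results.

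Markers of cardiomyocytes summed to 43081 to 50820.4 at P04 and 70375 to 96085 at P23, whereas 11 skeletal muscle markers summed to 8.34 to 15.1 at P04 and 4.06 to 15.4 at P23 and 6 atrial markers to 156 to 379 at P04 and 158 to 439.6 at P23. None of the 4 tested atrial markers was called (0 below an unadjusted p of 0.05 by edgeR, 0 calls by DESeq2), and the other 2, Sln and Bmp10, were too low to be tested, with means of 4.77 and 1.24 at P04 and 9.17 and 3.17 at P23. None of the 5 tested sex-linked genes was called, with log2 fold changes from -1.20 to 1.61. The 6 listed ones summed to 148 to 713 at P04 and 224 to 391 at P23. The labels do not give the sex of each pup, so the missing calls do not show that the sexes were balanced.

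The classes of RNA moved unequally. Of 9549 protein coding genes tested, 917 rose and 1091 fell, and their median log2 fold change was 0.01, beside -0.03 over all tested genes. Among 199 long noncoding RNAs (lncRNAs), 12 rose and 52 fell (median -0.52). In the snoRNA class 16 of 165 rose (9.70%, near the share of all tested genes) and 9 fell (5.45%, median 0.15), and without P23 library 8 there were 9 rises and 10 falls. Of 122 snRNAs 19 fell (15.6%, near the 12.6% of all tested genes) and none rose (beside 9.55% of all tested genes). Their median was -0.59. There were 10 falls without P23 library 6 and 11 with DESeq2, and edgeR gave 4 rises below an unadjusted p of 0.05. The mitochondrial genome stood at the other end, with 15 of 17 tested tRNAs and 7 of 8 tested mRNAs risen, none fallen, and medians of 2.27 and 1.77.

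The shares of all counts moved the same way for the mitochondrial classes and snRNA, but not for every class. Genes of the mitochondrial genome took 23.5% ± 2.01 (SD, n = 4) of the counts at P04 and 42.4% ± 1.34 at P23, and the libraries ranged from 21.7% to 26.1% and from 40.9% to 44.1%. Mitochondrial rRNA rose from 18.9% ± 1.51 to 30.9% ± 2.06, mitochondrial tRNA from 2.42% ± 0.175 to 6.47% ± 0.385 and mitochondrial mRNA from 2.15% ± 0.451 to 5.07% ± 1.32. Nuclear rRNA fell from 39.8% ± 1.65 to 30.3% ± 1.47, protein coding mRNA from 17.2% ± 0.967 to 12.8% ± 1.87 and snRNA from 0.966% ± 0.130 to 0.606% ± 0.0352. Each of these 6 classes, and the genes without a class (2.27% ± 0.0626 to 1.09% ± 0.0898), had no overlap between the ages. A two-sided exact permutation test over the 70 assignments of 8 libraries gave each p = 0.0286, the smallest that 4 libraries against 4 allow, and an adjusted p of 0.0490 over the 12 classes.

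The shares of snoRNA (10.0% ± 1.08 to 7.74% ± 0.636) and miRNA (3.51% ± 0.753 to 2.49% ± 0.349) overlapped by 1 library or more and did not pass the test (exact permutation p = 0.0571 for each, adjusted p = 0.0762). lncRNA (2.06% and 1.87%, exact permutation p = 0.543) and the other small RNAs (0.534% and 0.576%, exact permutation p = 0.6) were likewise not separated. A share is bound to the other shares. When the mitochondrial counts were removed from the total, no nuclear class passed the test. Protein coding mRNA then stood at 0.988 times its P04 share (adjusted p = 0.943) and nuclear rRNA at 1.01 times (adjusted p = 0.943). Most of the rRNA counts were on 1 gene, Gm42418 (chromosome 17, 39846354 to 39848202 of GRCm38.p6), which took 39.0% of the counts at P04 and 29.6% at P23 but whose normalized counts of 1405710 ± 94519 at P04 to 1650070 ± 257203 at P23 were not called (log2 fold change 0.23, adjusted p = 0.255).

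**Figure D1:**
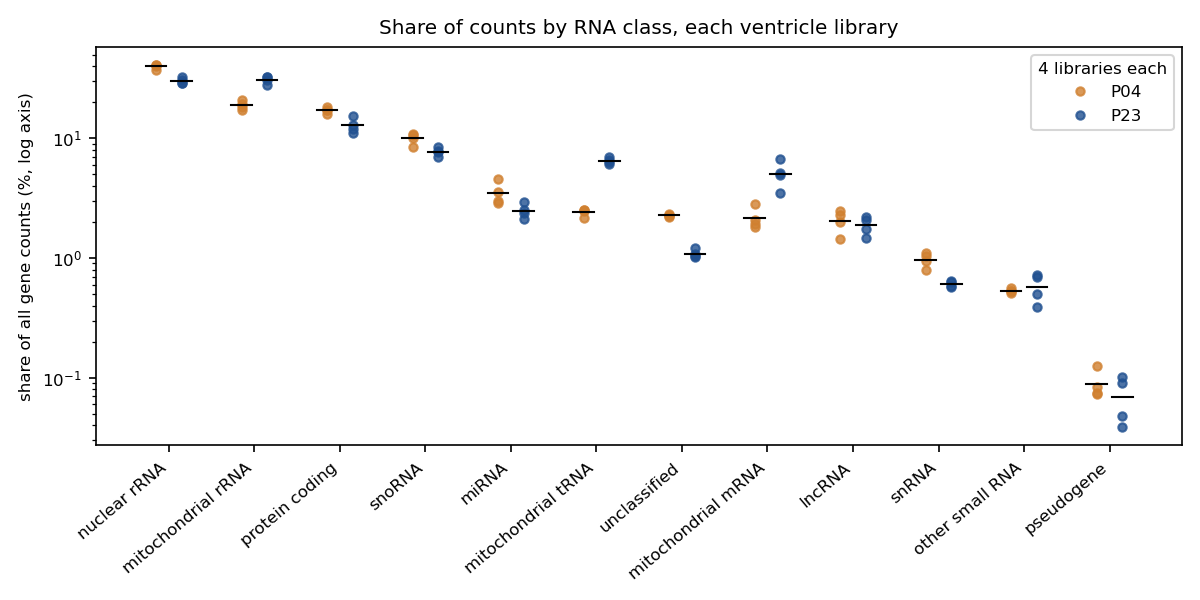
Share of all gene counts per RNA class in each library, in percent on a log axis, with a point per library, 4 libraries at P04 (orange) and 4 at P23 (blue), and a bar at the mean. The 3 mitochondrial classes are higher in all P23 libraries, whereas nuclear rRNA, protein coding mRNA, snRNA and unclassified genes are lower in all of them.

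Within the mitochondrial genome the rise was broad but not even. mt-Nd2, which encodes a subunit of respiratory complex I, had normalized counts of 15089.8, 12260, 10112 and 10569 at P04 and 66741, 62186, 70963 and 58944 at P23 (log2 fold change 2.43, standard error 0.17, adjusted p = 1.51e-12). Every P23 library was above every P04 library by a wide margin. mt-Nd3 (log2 fold change 2.31), mt-Nd5 (1.87), mt-Nd4 (1.75) and mt-Nd1 (1.49), all of complex I, rose too, as did mt-Co1 of complex IV (1.79) and mt-Cytb of complex III (1.57). mt-Nd6, the complex I gene encoded on the opposite strand, had a log2 fold change of 0.54 (adjusted p = 0.122) and was the 1 tested mitochondrial mRNA that was not called. The other 5 mRNAs of this genome, mt-Co2, mt-Co3, mt-Atp6, mt-Atp8 and mt-Nd4l, were listed at or near 0 in the libraries of both ages and were not tested.

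The rRNA of the large mitochondrial ribosomal subunit, mt-Rnr2, rose by 1.58 on the log2 scale (standard error 0.17, adjusted p = 3.68e-09), and its share of all counts went from 11.7% to 22.6%. For mt-Rnr1, of the small subunit, the log2 fold change was 0.83 (adjusted p = 0.00011), just under the fold threshold, and the share went from 7.21% to 8.26%. Of the tRNAs, mt-Tq, for glutamine, gave 3699.7, 4002, 4476 and 3329 at P04 and 20267, 16944, 15789.8 and 54141 at P23 (log2 fold change 2.79, standard error 0.31, adjusted p = 1.94e-06). All P23 libraries were above all P04 libraries, as the rule for naming such genes required, and library 8 at P23 was far above the other 3. The tRNA for leucine mt-Tl1 was more even, with 7676, 7856, 9089 and 7495 at P04 and 55613, 49824, 38966 and 40871 at P23 (log2 fold change 2.53, standard error 0.16, adjusted p = 1.50e-13). The 15 risen tRNAs had log2 fold changes from 1.08 for mt-Tm, whose libraries overlapped, to 3.52 for mt-Th, a low count gene that went from 8.25 to 97.9. mt-Tw (1.13) and mt-Te (0.73) were not called.

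**Figure D2:**
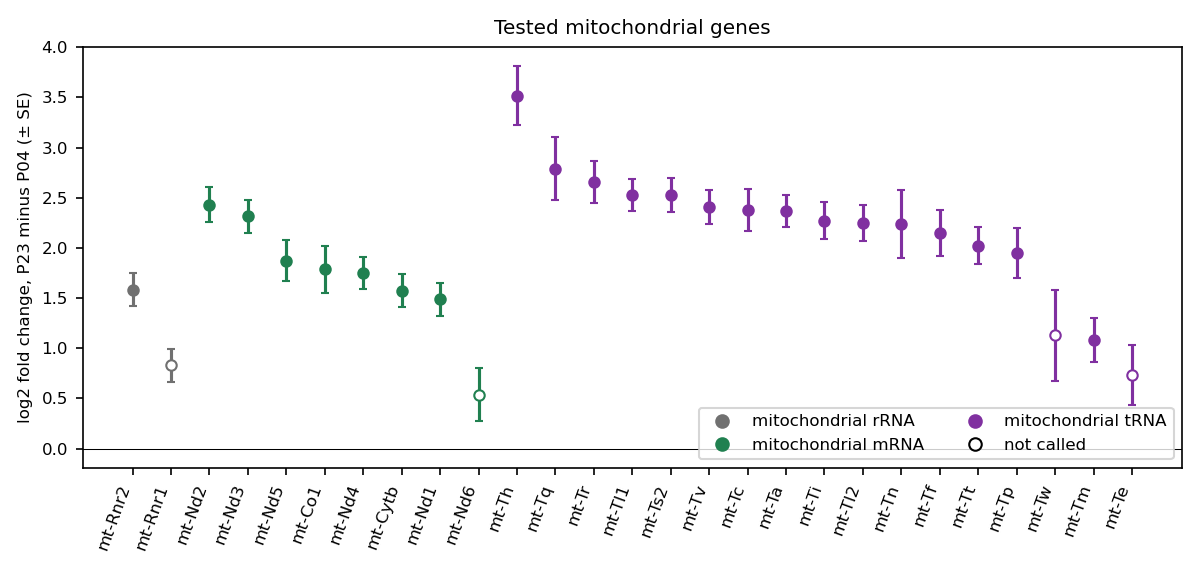
log2 fold change (P23 minus P04, ± standard error, edgeR) of each tested mitochondrial gene, with filled points for genes that passed both thresholds and open points for those that did not. All points lie above 0, the mRNAs that rose run from 1.49 to 2.43, and mt-Rnr1 lies below mt-Rnr2.

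Nuclear genes of the respiratory chain rose in part. Of 74 tested nuclear subunits of the respiratory chain, 28 rose and none fell, and their median log2 fold change was 0.76. The 46 uncalled subunits had a median of 0.66, and in 43 of them the P23 libraries lay above the P04 libraries without overlap. Over all tested genes, called or not, 35.6% had no overlap in either direction. Cox7a1, the heart and muscle isoform of a complex IV subunit, was the most changed, with 213, 243, 223 and 208 at P04 and 1073, 952, 889 and 966 at P23 (log2 fold change 2.13, standard error 0.12, adjusted p = 1.81e-14). Cox6a2 (1.48) and Cox8b (1.18) are also muscle isoforms of complex IV, and Cycs (1.28) encodes cytochrome c. The proteins of the mitochondrial ribosome gave 8 risen and no fallen genes of 73 (median 0.45, 5 risen without P04 library 4), and this share risen of 11.0% is near that of all tested genes, while 81 proteins of the cytosolic ribosome had a median of -0.13.

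Genes of the tricarboxylic acid cycle and of pyruvate entry into it rose in 19 of 24 cases, with no fall and a median of 0.94. Mpc1, a subunit of the mitochondrial pyruvate carrier, had 29.2, 44.4, 40.7 and 31.1 at P04 and 138, 121, 131 and 118 at P23 (adjusted p = 9.62e-10). Sucla2 (1.52), of succinyl-CoA ligase, Ogdh (1.48), of the oxoglutarate dehydrogenase complex, and Cs (1.33), citrate synthase, followed. Among 20 glycolysis genes 11 rose and none fell (median 0.91), but 1 fell when P04 library 1 was left out. The risen ones were led by Hk2 (2.05), the hexokinase of insulin-responsive tissues, Slc2a4 (1.76), the insulin-responsive glucose transporter GLUT4, and Pfkm (1.67), muscle phosphofructokinase. Slc2a1, the GLUT1 transporter, had -0.56 and Ldha -0.07, neither called, and the 9 uncalled genes ran from -1.91 to 0.55.

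Of 30 tested fatty acid oxidation genes, 7 rose (23.3%) and 4 fell (median 0.45), and the share fallen, 13.3%, is near that of all tested genes. Lpl, the lipoprotein lipase that releases fatty acids at the vessel wall, rose from 845 ± 59.1 at P04 to 3154 ± 326 at P23 (log2 fold change 1.90). Acadm (1.23) and Echs1 (1.16), both enzymes of the β-oxidation spiral, and the fatty acid transporter gene Cd36 (0.98) also rose. Cpt1a (-0.93), the liver form of carnitine palmitoyltransferase 1, fell, whereas Cpt1b, the muscle form, had 0.16 and was not called. The acyl-CoA thioesterases Acot1 (-2.08) and Acot2 (-1.07) fell as well, but they are near-identical copies whose reads may not be told apart.

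The largest rise among the energy genes was that of Ckmt2, the mitochondrial creatine kinase of striated muscle, which makes phosphocreatine from mitochondrial ATP (chromosome 13, 91853386 to 91876923). Its normalized counts were 98.0, 107, 68.6 and 85.6 at P04 and 1277, 1157, 1349 and 1149.8 at P23 (log2 fold change 3.78, standard error 0.14, adjusted p = 1.19e-18). The libraries within an age were close together, and the mean at P09 was 414. Mb, myoglobin, rose from 1192 ± 171 at P04 to 4195 ± 309.6 at P23 (log2 fold change 1.81). Of the 11 tested genes of energy transfer 6 rose and none fell, and the cytosolic creatine kinase Ckm had a log2 fold change of 0.92. In the lists above without a fall, edgeR gave 0 falls in the tricarboxylic acid cycle, 1 in the respiratory chain, 1 in energy transfer and 2 in glycolysis below an unadjusted p of 0.05, and DESeq2 called 0 falls in each.

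**Figure D3:**
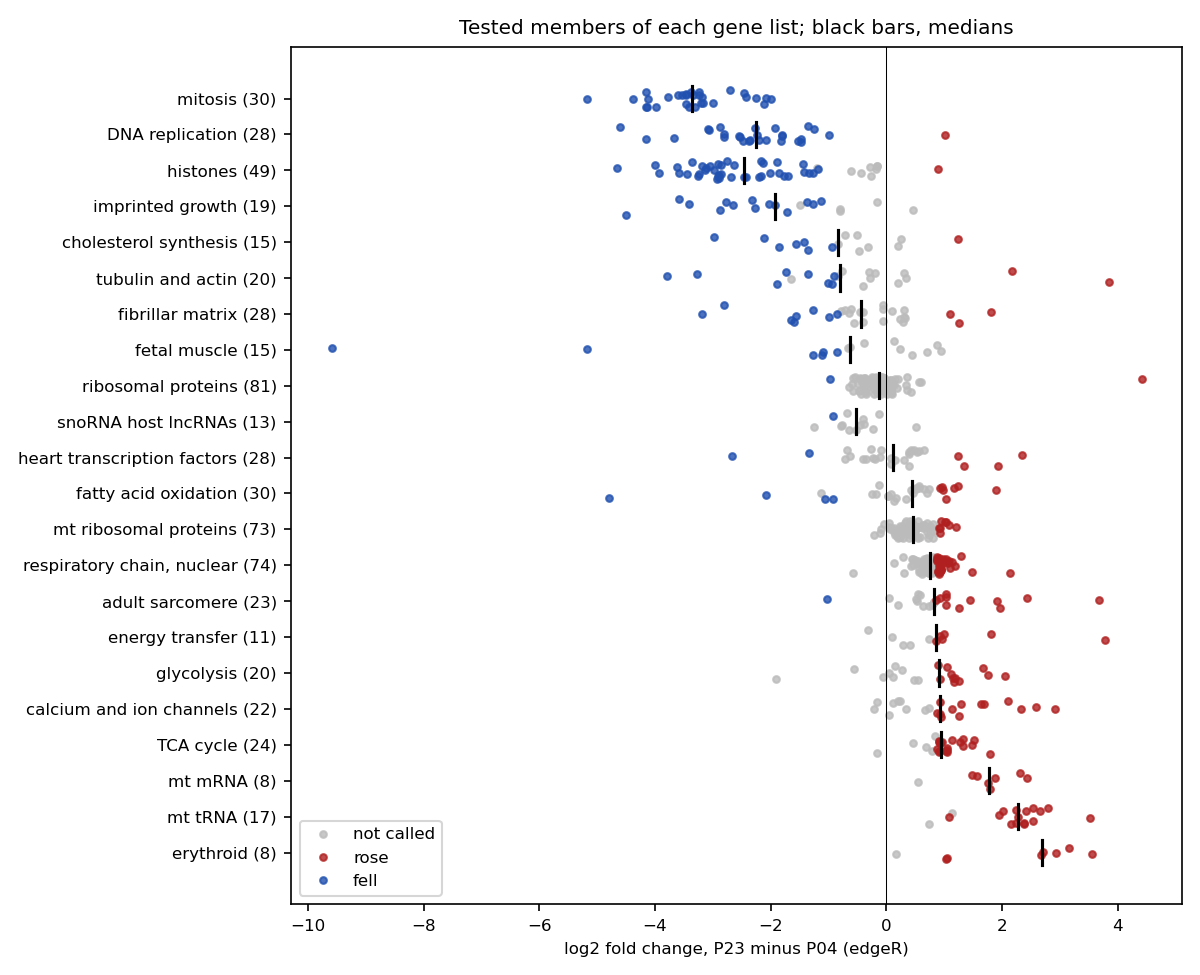
log2 fold change (P23 minus P04, edgeR) of each tested member of 22 gene lists, with the number tested in brackets, a point per gene coloured by its call and a black bar at the list median. The medians of mitosis, DNA replication, histone and imprinted genes lie furthest to the left of 0, and those of mitochondrial mRNAs, mitochondrial tRNAs and erythroid genes furthest to the right.

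Isoforms of contractile protein genes moved in opposite directions. Tnni1, the slow skeletal troponin I of the fetal heart, had normalized counts of 792, 753, 609.9 and 666 at P04 and 0, 0.962, 1.87 and 0 at P23, and its mean at P09 was 233. In raw reads this was 2920 counts over the 4 P04 libraries and 3 over the 4 P23 libraries, a ratio of 887 after scaling, with a 95% counting interval of 303 to 4303. Tnni3, the cardiac troponin I that replaces it, had 1253, 1293, 1115 and 1255 at P04 and 2908, 2884, 2774 and 3158 at P23 (log2 fold change 1.25, standard error 0.13, adjusted p = 7.11e-09). Both genes were without overlap, in opposite directions.

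Myh7, the slow β-myosin heavy chain that predominates in the fetal mouse ventricle, had 874, 620.3, 667 and 784 at P04 and 20.9, 23.1, 26.1 and 9.47 at P23 (log2 fold change -5.17, standard error 0.22, adjusted p = 3.19e-17). Its mean at P09 was 44.2. Myh7 spans the miRNA gene Mir208b, whose reads cannot be told apart from its own where they overlap. Myh6, the fast α-myosin heavy chain of the adult mouse heart, rose from 6648 ± 491 at P04 to 13607 ± 1495 at P23 (log2 fold change 1.03, standard error 0.15, adjusted p = 1.14e-06). Myh7b, a further slow myosin gene, fell by 1.02 on the log2 scale.

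Fetal muscle genes fell in 6 of 15 cases and rose in none (median -0.62, 3 rises below an unadjusted p of 0.05 by edgeR, 0 by DESeq2), and apart from Tnni1 and Myh7 they were Cacna1h (-1.27), a T-type calcium channel, Tnnt1 (-1.11), slow troponin T, Tpm2 (-1.10), β-tropomyosin, and Actn1 (-0.86), the non-muscle α-actinin. The natriuretic peptide genes Nppa (0.87) and Nppb (0.95) and the skeletal actin gene Acta1 (0.70) were not called. Adult sarcomere genes rose in 11 of 23 cases (median 0.82), and all 11 uncalled ones had positive values, from 0.05 to 0.82. The largest rise was that of Xirp2, which encodes an actin-binding protein of the intercalated disc, with 48.0, 65.7, 38.6 and 42.3 at P04 and 608, 584, 776 and 537 at P23 (log2 fold change 3.68, standard error 0.19, adjusted p = 4.12e-14). Cmya5 (2.42), myospryn, Myoz2 (1.97), which binds calcineurin at the Z-disc, Tcap (1.91), the titin cap telethonin, and Tpm1 (1.44), α-tropomyosin, followed.

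Calcium handling and ion channel genes rose in 13 of 22 cases and none fell (median 0.93). Atp2a2, the SERCA2 pump that refills the sarcoplasmic reticulum, went from 2688 ± 382 at P04 to 8606 ± 1524 at P23 (log2 fold change 1.68, standard error 0.17, adjusted p = 2.86e-09). Its inhibitor phospholamban, Pln, rose too (1.14), as did the release channel Ryr2 (0.94). Hrc, a calcium-binding protein inside the reticulum, had 117, 120.3, 139 and 128 at P04 and 642, 642, 668 and 589.8 at P23 (log2 fold change 2.33, standard error 0.16, adjusted p = 3.63e-13). Among potassium channels, Kcnd2 (2.91), of the transient outward current, and Kcnj3 (2.59), of the acetylcholine-gated current, rose most. The L-type channel Cacna1c (0.23), the sodium-calcium exchanger Slc8a1 (-0.22) and the gap junction gene Gja1 (-0.16) were not called.

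Among cytoskeletal genes, Tuba8, an α-tubulin, had 11.5, 5.97, 7.50 and 5.65 at P04 and 89.0, 113, 117 and 123 at P23 (log2 fold change 3.85, standard error 0.22, adjusted p = 1.58e-14), and Tuba4a, another α-tubulin, rose by 2.17 on the log2 scale. Other tubulin genes moved the other way. Tubb5 went from 348 to 93.2 (-1.90), and Tubb2b (-3.80) and Tuba1b (-1.35) fell with it, as did Marcksl1 (-3.28), a membrane protein that organizes actin. In all, 2 of 20 tubulin and actin genes rose and 8 fell (median -0.80, 5 fallen without P23 library 6). Among the largest rises of all protein coding genes, Mylk4, a myosin light chain kinase family member, went from 12.3 ± 7.97 at P04 to 169.7 ± 53.6 at P23 (3.76), and the leucine-rich repeat genes Lrtm1 (109.9 to 1148, 3.38) and Lrrc2 (18.9 to 148, 2.97) rose with no overlap.

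Apbb1ip, an adaptor between Ras signalling and integrins, had the largest fitted rise of that set, on a wide spread. Its normalized counts were 3.13, 6.83, 6.43 and 5.65 at P04 and 260.4, 1182, 139 and 8.12 at P23 (log2 fold change 6.14, standard error 1.16, adjusted p = 0.000905). P23 library 8 lay just above the P04 libraries and library 5 far above all others.

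Among ribosomal protein genes, Rpl3 and its muscle paralogue Rpl3l were the 2 that were called, of 81 tested. Rpl3l had 1.04, 5.12, 5.36 and 4.70 at P04 and 85.7, 80.8, 95.2 and 98.7 at P23 (log2 fold change 4.41, standard error 0.27, adjusted p = 4.12e-14), with a mean of 6.69 at P09. Rpl3 had 102, 133, 129.7 and 111 at P04 and 65.9, 72.1, 48.5 and 55.5 at P23 (log2 fold change -0.97, standard error 0.15, adjusted p = 4.29e-06). The pair moved in opposite directions without overlap. Rpl3 contains the snoRNA genes Snord83b and Snord43, and Snord83b rose (log2 fold change 1.06).

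**Figure D4:**
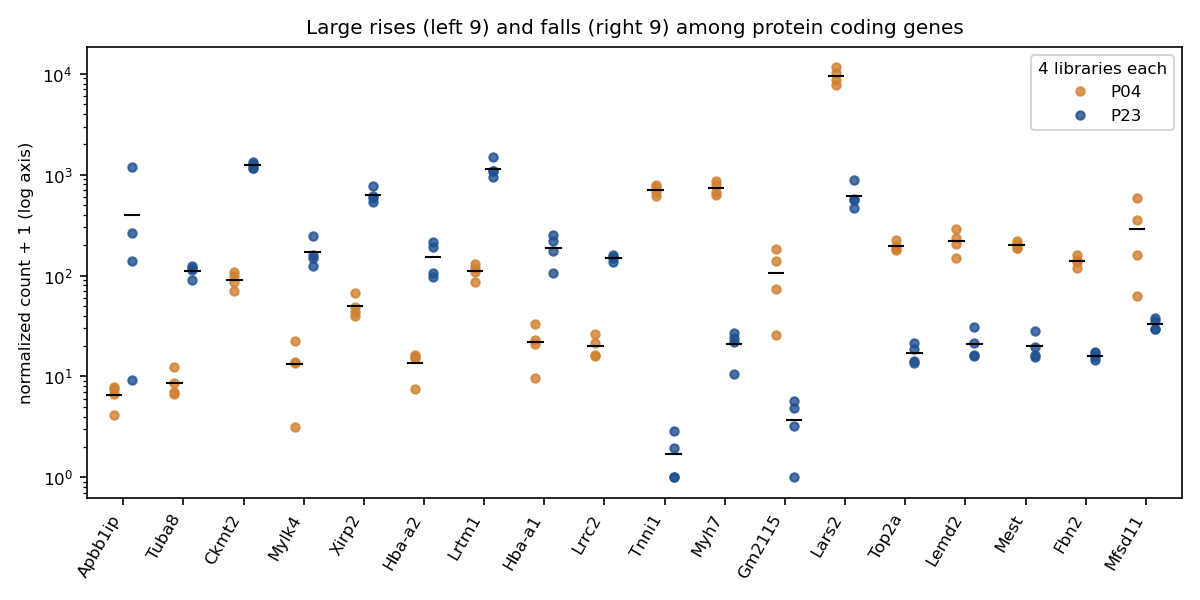
Normalized count plus 1 on a log axis for 9 of the largest rises (left) and 9 of the largest falls (right) among protein coding genes that met the rule, with a point per library, 4 at P04 (orange) and 4 at P23 (blue), and a bar at the mean. Ckmt2, Myh7 and Top2a have tight, separate groups, whereas Apbb1ip spreads from 8.12 to 1182 at P23 and Mfsd11 from 62.2 to 589 at P04.

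All 30 tested genes of mitosis fell, without overlap between the libraries in any of them, and their log2 fold changes ran from -5.18 to -1.99 (median -3.37). Their summed normalized counts were 1241 to 1513 at P04 and 154 to 220.5 at P23. At P09 the mean sum was 1214. Top2a, the topoisomerase that untangles chromosomes for segregation, had 178, 181, 195 and 224 at P04 and 13.2, 12.5, 20.5 and 17.6 at P23 (log2 fold change -3.60, standard error 0.19, adjusted p = 1.49e-15). Mki67, the proliferation marker Ki-67, went from 128 ± 24.5 at P04 to 14.2 ± 2.89 at P23 (-3.17), with 143 at P09. Cdk1, the kinase that drives entry into mitosis, went from 30.3 ± 1.69 at P04 to 1.43 ± 1.16 at P23, so that at P23 it rested on a few counts. For Ccnb1, cyclin B1, 58 raw counts at P04 stood against 1 at P23, a ratio of 52.9 (95% counting interval 9.12 to 2123).

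DNA replication genes fell in 27 of 28 cases (median -2.25). The helicase subunits Mcm2 (-2.52), Mcm3 (-2.48), Mcm5 (-3.06) and Mcm6 (-1.81) fell, whereas Mcm7 rose from 107 ± 15.6 at P04 to 218 ± 52.0 at P23 (1.02). Mcm7 contains the miRNA genes Mir25, Mir93 and Mir106b, whose reads cannot be told apart from its own where they overlap. Prim1 (-3.67), DNA primase, Chaf1a (-4.16), which loads histones on new DNA, and Rrm2 (-3.08), of ribonucleotide reductase, fell strongly, and Pcna, the sliding clamp, least (-0.99). Of 49 replication-dependent histone genes, whose mRNAs lack a poly(A) tail and could be captured through the tailing step, 40 fell and 1 rose (median -2.45). The linker histone genes Hist1h1b (-2.98) and Hist1h1a (-2.69) were among the falls, while Hist1h1c (-0.17) was not called and Hist1h2bc rose (0.90), a call that was lost without P04 library 4 or P23 library 1. Histone copies are near-identical, so the split of reads between them is uncertain.

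The promoters of the mitosis genes are shown here because all 30 members fell together. RefSeq (GRCm38.p6) promoters could be matched for 24 of them, and the 250 bases before the start site were searched on both strands for CCAAT, the box bound by NF-Y, and for TTTGAA, a core of the cell cycle homology region, which do not overlap each other. CCAAT was present in 20 of the 24 (83.3%), beside 36.1% of 7713 promoters of tested genes and 34.5% of 27025 promoters in all. TTTGAA was present in 10 (41.7%), beside 9.96% and 16.3%, and both motifs in 10 (41.7%), beside 3.93% and 5.73%. These are matches of letters and not measured binding. Below are the 130 bases before the start of Cdk1 (chr10:69352913-69353042, reverse strand), Top2a (chr11:99024190-99024319, reverse strand), Ube2c (chr2:164769799-164769928, forward strand) and Cdc20 (chr4:118437344-118437473, reverse strand), 5′ to 3′ along the gene, with both motifs, read on either strand, in capitals. Ube2c and Cdc20 encode the ubiquitin-conjugating enzyme and the activator of the anaphase-promoting complex, and their log2 fold changes were -4.14 and -3.21.
Cdk1: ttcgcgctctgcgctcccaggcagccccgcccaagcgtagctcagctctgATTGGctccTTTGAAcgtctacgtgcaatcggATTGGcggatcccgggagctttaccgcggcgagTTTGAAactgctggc
Top2a: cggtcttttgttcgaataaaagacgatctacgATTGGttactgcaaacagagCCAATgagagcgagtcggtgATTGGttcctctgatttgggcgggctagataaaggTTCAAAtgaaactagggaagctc
Ube2c: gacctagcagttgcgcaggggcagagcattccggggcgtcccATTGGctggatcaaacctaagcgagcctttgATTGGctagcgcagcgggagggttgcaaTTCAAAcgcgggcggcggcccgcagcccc
Cdc20: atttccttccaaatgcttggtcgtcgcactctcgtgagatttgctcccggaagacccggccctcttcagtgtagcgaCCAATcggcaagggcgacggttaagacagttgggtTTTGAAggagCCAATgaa
The 4 stretches were picked because both motifs lie within them, as they do in 6 of the 10 promoters with both motifs in the longer window. In DNA replication genes, 15 of 23 promoters held CCAAT (65.2%) and 3 held both (13.0%), and in cholesterol synthesis genes 9 of 10 promoters held CCAAT (90.0%) and 1 held both (10.0%). Lists with more rises than falls held the motifs as well. CCAAT was in 57.1% of tricarboxylic acid cycle, 44.4% of energy transfer, 43.3% of respiratory chain, 41.2% of calcium handling and 31.6% of adult sarcomere promoters. Both motifs were in 9.52%, 0%, 5.00%, 11.8% and 5.26% of them.

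Imprinted genes of fetal growth fell in 14 of 19 cases and rose in none (median -1.92). H19, a maternally expressed lncRNA, had 351, 325, 325 and 343 at P04 and 18.7, 32.7, 32.7 and 27.1 at P23 (log2 fold change -3.58, standard error 0.17, adjusted p = 3.92e-16). Its neighbour Igf2, the fetal insulin-like growth factor, fell by 2.77 on the log2 scale. Both loci contain miRNA genes, Mir675 in H19 and Mir483 in Igf2. Mest, a paternally expressed gene that contains Mir335, went from 199.6 ± 16.3 at P04 to 18.9 ± 5.74 at P23 (log2 fold change -3.42, standard error 0.17, adjusted p = 9.05e-16). Plagl1 (-2.87), a zinc finger regulator, Peg10 (-2.28), derived from a retrotransposon, and Cdkn1c (-1.12), an inhibitor of the cell cycle, fell as well.

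The imprinted Dlk1-Dio3 region on chromosome 12 held falls in several RNA classes. Its paternally expressed gene Dlk1, a Notch ligand relative, had a log2 fold change of -4.50. Of its maternally expressed lncRNAs, Meg3 had 188, 193, 189.7 and 199 at P04 and 42.8, 52.9, 21.5 and 36.5 at P23 (log2 fold change -2.32, standard error 0.17, adjusted p = 5.56e-12), Rian went from 149 ± 7.28 at P04 to 62.1 ± 12.5 at P23 (-1.27) and Mirg had -2.65. Dio3, the deiodinase gene at its far end, had -0.14 and was not called. The 6 tested snoRNAs between Dlk1 and Dio3 (chromosome 12, 109452485 to 110281097) all fell without overlap (median -2.43), and none of the 8 other tested snoRNAs of the chromosome fell. This set was chosen after its values were seen. Gm23787 had 489, 572, 632 and 584 at P04 and 92.3, 105, 70.9 and 120.4 at P23 (log2 fold change -2.55, standard error 0.15, adjusted p = 1.54e-14), and AF357341 (-3.61), Gm22981 (-3.50), DQ267102 (-2.30), Gm25854 (-1.78) and Gm23736 (-1.29) were the others. Such snoRNAs are processed from the introns of the long host transcripts, and DQ267102 lies within Rian.

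Other lncRNAs fell more often than they rose. Gm15564 went from 2159 ± 397 at P04 to 273 ± 73.2 at P23 (log2 fold change -2.99, standard error 0.20, adjusted p = 2.03e-13). Its P04 libraries (2367, 2606, 1743 and 1920) ranked in the order of those of Lars2 (10294, 11546, 7697 and 8638), a gene with an rRNA-like stretch described below. At P23 the order differed, and a shared source of reads was not tested. Gm27151 (-2.71), B330016D10Rik (-1.39) and Hand2os1 (-1.09), the antisense neighbour of the heart transcription factor gene Hand2, fell too. Miat, an lncRNA named after its association with myocardial infarction, had -2.28, Airn, the imprinted antisense RNA of Igf2r, -1.48, and C430049B03Rik -2.50. C430049B03Rik spans the miRNA genes Mir351 and Mir503, whose reads cannot be told apart from its own where they overlap. Neat1, the scaffold RNA of nuclear paraspeckles, rose, with 114, 87.9, 105 and 62.1 at P04 and 359, 281, 284 and 277 at P23 (log2 fold change 1.71, standard error 0.16, adjusted p = 3.61e-10). Malat1, the neighbouring nuclear lncRNA, went from 8783 ± 528 at P04 to 6302 ± 757 at P23 and was not called (-0.48, adjusted p = 0.00917). Gm15543 rose from 52.3 to 196 (1.90). Host genes of snoRNAs in the lncRNA class fell in 1 of 13 cases (Snhg14, -0.93), a call that was lost without P23 library 1 or 6, and the growth arrest host gene Gas5 had -0.23. 4930583K01Rik took the most counts of the class and was uneven, with 10385, 35242, 51005 and 41429 at P04 and 95390, 79922, 55052 and 56116 at P23 (standard error 1.57, adjusted p = 0.634).

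**Figure D5:**
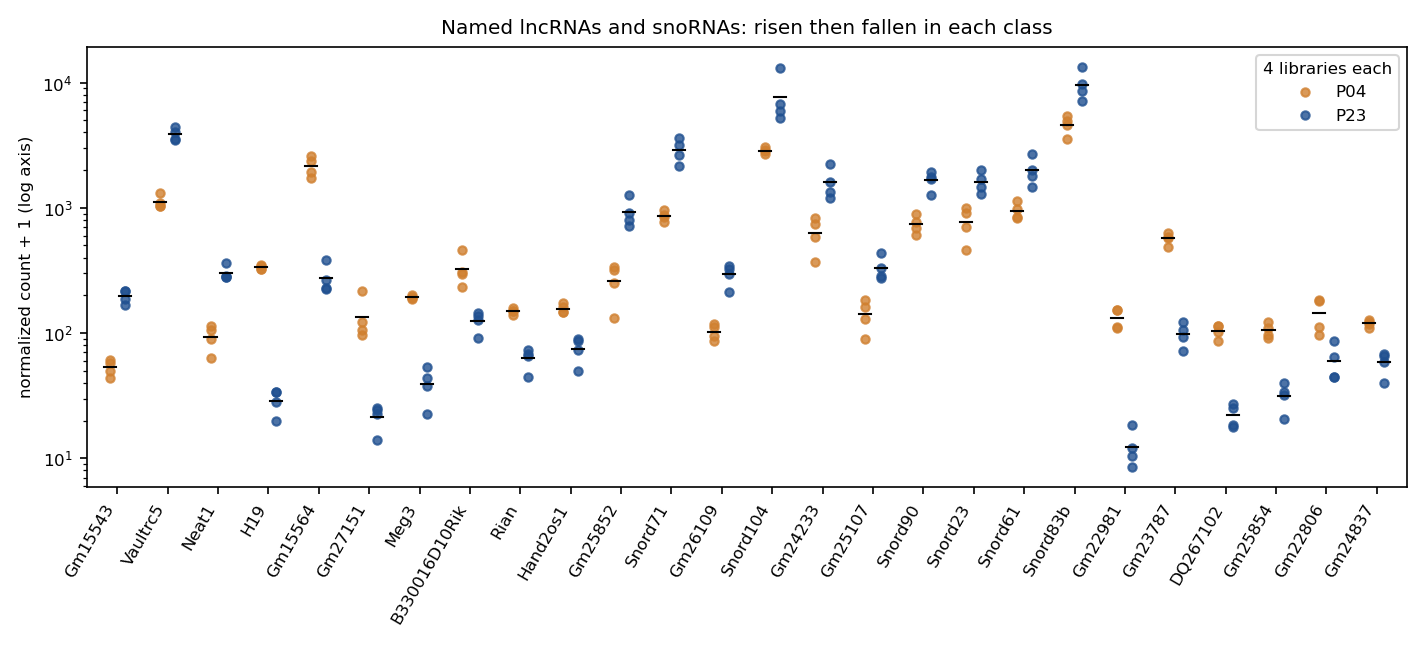
Normalized count plus 1 on a log axis of the lncRNAs and snoRNAs that met the rule, with rises before falls in each class, a point per library, 4 at P04 (orange) and 4 at P23 (blue), and a bar at the mean. The rule required the P04 and P23 points to be separate, and Gm25852, Gm24233, Gm25107 and Snord23 have a P04 library well below the rest.

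C/D box snoRNAs guide 2′-O-methylation. Of 45 tested snoRNAs that could be assigned to this kind by name, 9 rose and 2 fell (median 0.12, 5 risen without P23 library 8), and a further 54 of the 103 in the table had no count in the 8 libraries. Snord71 had 838, 959, 771 and 870.4 at P04 and 3148, 2631, 2173 and 3610.2 at P23 (log2 fold change 1.75, standard error 0.16, adjusted p = 5.33e-10), with a mean of 764 at P09. Snord104 had 2698, 3040.2, 2819 and 2889 at P04 and 5939, 6757, 5163 and 13026 at P23 (log2 fold change 1.43, standard error 0.22, adjusted p = 7.48e-06). In both, all P23 libraries were above the P04 libraries, as the rule required. Snord83b, within Rpl3, went from 4621 ± 781 at P04 to 9642 ± 2662 at P23 (1.06), and Snord90 (1.17), Snord61 (1.07) and Gm26109 (1.53), whose kind was not assigned, rose as well. Gm25852 (1.82), Gm24233 (1.33) and Gm25107 (1.23) passed too, as did Snord23 (1.08), but each of these 4 lost its call in some of the alternative settings.

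H/ACA box snoRNAs, which guide pseudouridylation, gave no call among the 17 tested by edgeR that could be assigned by name (median 0.40, with 2 higher and 0 lower below an unadjusted p of 0.05, and 0 calls by DESeq2). Of 7 tested RNAs of Cajal bodies, Scarna6 rose (1.12), though not by DESeq2. Snord37, the snoRNA with the most counts, had 27901, 32400.1, 26969 and 28286 at P04 and 38428, 35838, 25378 and 42727 at P23 and was not called (log2 fold change 0.30). The 3 falls outside chromosome 12 were Gm22806 (-1.28), Gm24837 (-1.06) and Snord53 (-0.85).

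Among the 19 fallen snRNA genes, Gm22973 had 1044, 1180.1, 1043 and 994 at P04 and 303, 340.5, 249 and 411 at P23 (log2 fold change -1.71, standard error 0.16, adjusted p = 7.78e-10). Gm26316 (-2.05), Gm25360 (-1.50) and Gm25080 (-1.27) fell in the same way, but these genes belong to repeated families whose reads may map to several copies. Among other small RNAs, the Y RNA Rny1, part of the Ro ribonucleoprotein, rose from 5807 ± 359.8 at P04 to 10808 ± 1837 at P23 (0.90). This call was lost without P23 library 5. Its relative Rny3 (0.63), the transcription regulator Rn7sk (0.13) and the RNase P RNA Rpph1 (0.40) were not called. Vaultrc5, the RNA of the vault particle, rose from 1116 ± 129 at P04 to 3861 ± 464 at P23 (log2 fold change 1.79, standard error 0.16, adjusted p = 9.17e-11). By its annotation it was counted in the lncRNA class, among the 12 that rose. Both risen RNAs are transcribed by RNA polymerase III, a trait that is not particular to them, and any link to their rise was not tested.

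Of genes without an assigned class, Gm37194 went from 1053 ± 177 at P04 to 182 ± 27.5 at P23 (-2.53) and AA474408 from 144 ± 37.4 at P04 to 10.2 ± 3.16 at P23 (-3.84), and Gm37709 rose from 60.8 ± 27.6 at P04 to 378 ± 113 at P23 (2.64). Gm24270 (-3.41) and Gm23388 (-8.04) also fell, but their P04 libraries differed widely, and Gm23388 had 840.2, 1187, 27.9 and 25.4 at P04 and 3.30, 0.962, 2.80 and 0 at P23. Gm14236 (-1.95), Gm9806 (-1.54) and Gm17092 (-1.31) completed the falls by the rule.

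Lars2, which encodes the mitochondrial leucyl-tRNA synthetase, fell from 9544 ± 1713 at P04 to 619 ± 179.9 at P23 (log2 fold change -3.95, standard error 0.21, adjusted p = 2.68e-15), with 2325 at P09. It was the fallen protein coding gene with the highest counts among those named, but it is known to hold an rRNA-like stretch, and its reads cannot be told apart from such fragments. Lemd2 (-3.47), of the inner nuclear membrane, Gm2115 (-5.12) and Mfsd11 (-3.17) were also among the largest falls. Mfsd11 had 589, 354, 62.2 and 159 at P04 and 28.6, 36.5, 34.5 and 28.4 at P23 and lost its call in several alternative settings.

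Matrix genes fell in part. Of 28 genes of the fibrillar matrix, 8 fell (28.6%) and 3 rose (10.7%), beside 12.6% and 9.55% of all tested genes (median -0.43). Postn, periostin, had 411, 348, 429 and 464 at P04 and 51.6, 70.2, 46.7 and 67.6 at P23 (log2 fold change -2.81, standard error 0.16, adjusted p = 2.05e-14). Its mean at P09 was 427, no lower than at P04. Fbn2, the fibrillin of fetal microfibrils, went from 138 ± 17.4 at P04 to 15.1 ± 1.34 at P23 (-3.18), whereas Fbn1 had -0.06. Fn1 (-1.59), fibronectin, Lox (-1.27), a collagen cross-linking enzyme, and the tenascin C gene fell, and Col8a1 (7.70 to 26.8) and Col5a3 (1.25) rose. The main collagen genes moved less, with Col1a1 at -0.86 and Col3a1, not called, at -0.41. In the basement membrane list, 2 of 14 rose (14.3%) and 3 fell (21.4%), which are few genes beside 9.55% and 12.6% of all tested genes (median 0.17). Col18a1 (-2.10) and Lamb2 (1.47) were the most changed.

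Cholesterol synthesis genes fell in 7 of 15 cases and rose in 1 (median -0.83). Dhcr7 (-2.12), a reductase of the last steps, fell, whereas Fdps, of the common isoprenoid steps, had 1.24 and rose with overlapping libraries, a call lost in 8 of 13 alternative settings. Of 28 heart transcription factors, 4 rose (14.3%) and 2 fell (7.14%), beside 9.55% and 12.6% of all tested genes (median 0.11). Thrb, the thyroid hormone receptor β, had 2.08, 5.97, 7.50 and 3.76 at P04 and 16.5, 26.9, 31.7 and 24.3 at P23 (log2 fold change 2.34, standard error 0.38, adjusted p = 7.69e-06). Klf15 (1.93), a repressor of cardiac hypertrophy, Ppara (1.24) and Ppard (1.35), the fatty acid-sensing receptors, rose too. Hey2, a Notch target of the compact ventricular wall, fell from 47.7 ± 4.40 at P04 to 7.17 ± 2.69 at P23 (-2.66), and Nrf1, nuclear respiratory factor 1, fell (-1.35). Gata4 (0.08), Nkx2-5 (0.15), Mef2c (0.07) and Tbx5 (0.39) were not called.

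Markers of other cell types moved beside these genes. Of 8 tested erythroid genes 7 rose (median 2.69), and the sum over the list was 790.2 to 1055 at P04 and 5215 to 6842 at P23. Hbb-bs, a β-globin gene, had 547, 734, 559 and 605 at P04 and 5263, 3779, 4626 and 4929 at P23 (log2 fold change 2.93, standard error 0.16, adjusted p = 5.77e-15). Alas2, of heme synthesis in red cells, rose by 2.68 on the log2 scale, and Hba-a1 (3.16) and Hba-a2 (3.55) are near-identical α-globin copies, as Hbb-bt (2.71) is of Hbb-bs. The embryonic globin Hbb-bh1 was at 0 in the 8 libraries. Macrophage genes rose in 5 of 9 cases (median 1.64, sum 111 to 167 at P04 and 337 to 418 at P23), among them F13a1 (3.74 to 48.2, 3.60), C1qb (6.45 to 51.3, 2.98) and Lyz2 (11.0 to 71.8, 2.67). Counts on these genes were low, and C1qa (-0.65) and Csf1r (0.56) were not called.

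The 17 lymphocyte and antigen presentation genes had mean sums of 21.4 at P04 and 63.9 at P23, with Cd74 at means of 2.87 and 23.5, and the neutrophil genes had sums of 5.36 to 13.6 at P04 and 4.67 to 14.9 at P23. Endothelial markers had a median log2 fold change of 0.10 and sums of 1021 to 1165 at P04 and 1001 to 1324 at P23. Fibroblast markers had a median of 0.30 and sums of 3004 to 3616 at P04 and 3411 to 4608 at P23, with Gsn risen (2.09) and Tcf21 fallen (-1.18). Smooth muscle and pericyte markers had a median of 0.27, and 1 of 11, Rgs5, rose (1.57). All 10 cardiomyocyte markers had positive values (median 0.81) and 4 rose. Of 17 immediate early and heat shock genes, which respond to handling and stress, 4 rose, namely Hsph1 (1.69), Cryab (1.49), Dusp1 (1.01) and Hspa8 (0.93), while Fos (0.41) and Egr1 (-0.05) were not called. In the calcium handling, imprinted, mitosis, mitochondrial genome, mitochondrial ribosome, erythroid, cardiomyocyte, heat shock, sex-linked and let-7 lists, where no call was made in a given direction, edgeR also gave 0 genes below an unadjusted p of 0.05 in it and DESeq2 0 calls, whereas the macrophage list had 1 lower gene below that p. The part that any of these cells or states had in the other results was not tested.

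miRNAs were a small share of the counts, and 27 of 206 tested miRNA genes rose and 74 fell (median -0.31). With the additional minimum of a mean of 300, 11 of 63 rose and 16 fell. The RefSeq mature sequences are given for the largest changes by the rule, with the seed, bases 2 to 8, in capitals. Counts are per gene and do not tell the arms apart. Of the 10 named genes 8 were matched, 1 arm is printed for 7 of them, and Mir150, Mir486 and Mir3107 are given by name only. The 7 printed seeds differ from each other.
miR-29a-3p: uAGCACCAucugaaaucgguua
let-7c-5p: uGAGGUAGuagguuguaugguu
miR-351-5p: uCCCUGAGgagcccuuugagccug
miR-298-5p: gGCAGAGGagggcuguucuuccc
miR-483-3p: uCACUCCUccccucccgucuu
miR-503-5p: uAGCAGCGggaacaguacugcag
miR-130b-3p: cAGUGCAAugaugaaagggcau
Mir29a (chromosome 6, 31062660 to 31062747, with the printed arm at chr6:31062673-31062694, reverse strand), known to target collagen transcripts, had 21.9, 43.5, 67.5 and 45.2 at P04 and 524, 774, 449 and 579 at P23 (log2 fold change 3.71, standard error 0.24, adjusted p = 7.20e-10). Mir150, a miRNA of lymphocytes, had 416, 543, 816 and 545 at P04 and 3769, 4846, 2841 and 2679.6 at P23 (2.61). Mir486 (524 to 1371, 1.39) and Mir3107 (119 to 385, 1.70) overlap on opposite strands, and Mir486 is known from erythroid cells, whose markers rose as given above. Mirlet7c-1 (chromosome 16, 77599657 to 77599750, with the printed arm at chr16:77599672-77599693, forward strand) rose from 1693 ± 453 at P04 to 3818 ± 1256 at P23 (1.17), and of 7 tested let-7 genes 2 rose and none fell.

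Mir351 (chromosome X, 53053255 to 53053353, with the printed arm at chrX:53053315-53053338, reverse strand) and Mir503 (chromosome X, 53053984 to 53054054, with the printed arm at chrX:53054027-53054049, reverse strand) lie within 1 cluster on the X chromosome, and their log2 fold changes were -3.15 and -2.44. Mir503 had 330.5, 347, 542 and 393 at P04 and 74.7, 89.4, 43.9 and 90.6 at P23. All P23 libraries were below all P04 libraries, as the rule required. Mir298 (chromosome 2, 174267504 to 174267585, with the printed arm at chr2:174267553-174267575, reverse strand) had 409.7, 431, 667 and 422 at P04 and 71.4, 86.6, 42.0 and 64.9 at P23 and Mir130b (chromosome 16, 17124061 to 17124142, with the printed arm at chr16:17124071-17124092, reverse strand) had 558, 607, 1059 and 787 at P04 and 158, 159, 98.0 and 151 at P23 (log2 fold change -2.41, standard error 0.18, adjusted p = 1.10e-11). Both had no overlap between the ages, which the rule also required. Mir483 (chromosome 7, 142654924 to 142654996, with the printed arm at chr7:142654932-142654952, reverse strand), which lies in Igf2, had 870.5, 629.7, 829.6 and 1051 at P04 and 135, 169, 92.4 and 164 at P23 (log2 fold change -2.59, standard error 0.19, adjusted p = 6.73e-12), and its host gene fell beside it.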

How the data were processed

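The study made 1 small RNA library per pup with the SMARTer smRNA-Seq kit from total RNA. The authors demultiplexed, trimmed, aligned (STAR, GRCm38.p6) and counted reads per gene (featureCounts), and the deposited values are raw counts, not normalized. How strand and reads with several matches were treated, and the tool versions, were not given in the sources used here, so overlapping, antisense and copied genes cannot be told apart, and without molecular identifiers intervals cover counting error only.

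All 16 libraries were fitted together in edgeR 4.0.16 (R 4.3.3, limma 3.58.1) with TMM factors, after filterByExpr (at least 10 counts per library in a group's worth of libraries, 15 in all), and the contrast P23 minus P04 was taken with the fold and p thresholds of the study. Normalized counts are scaled to a mean effective library size of 4125600. Libraries were grouped by the labelled time point, and 1 value column that matched no sample was not used. Symbols were found for 53620 gene IDs. Classes came from RefSeq and the symbols. Shares were compared by two-sided exact permutation tests. Alternatives were DESeq2 1.42.0, other scalings (DESeq2 size factors or mRNA genes alone), no filter, only the 8 libraries, and each library left out. Within P04 and P23, every pair of libraries differed beyond sampling noise (chi-square over its degrees of freedom, 4.42 to 22.0). Nothing states that pups came from separate litters, so p-values measure the spread between these pups. The steps were tested on simulated data. Python 3.11.15, pandas 2.3.3, numpy 2.4.6, scipy 1.17.1 and matplotlib 3.10.9 were used.

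The comparison, its lists of genes and the rule that selects named genes were chosen with earlier results of these data known. The rule named the members of the lists, and in each of protein coding genes, lncRNAs, snoRNAs and other RNAs the 10 largest rises and 10 largest falls among called genes whose libraries did not overlap and whose mean normalized count was at least 100 at P23 or P04. It also took the 5 largest rises and falls of miRNA genes with a mean of 300, and the 10 genes with the highest share of counts. A few genes that the rule or the lists named are not reported here.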

Additional observations from a re-analysis of the deposited data

Results flagged for a closer look

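In each group of 4 libraries, the gap of the highest or lowest library to its nearest neighbour was set against the range of the group (Dixon's test, critical value 0.829) for the named genes and the shares. Of 194 groups checked, 11 had such a library, and chance gives about 1 in 20.

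At P04, library 4 stood apart in 3 of them. Its normalized count was 6.43 for Hba-a2, against 14.1 to 15.4 in the other libraries, 712 for Gm24270, against 165 to 182, and 667 for Mir298, against 410 to 431. P04 library 1 had a nuclear rRNA share of 37.4%, against 40.3% to 40.8%, and P04 library 6 a mitochondrial tRNA share of 2.16%, against 2.48% to 2.53%.

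At P23, library 8 had 54141 normalized counts on mt-Tq, against 15790 to 20267 in the others, and 3666 on mt-Nd3, against 2761 to 2790. P23 library 6 was low for mt-Tv (44967, against 63853 to 66669), for Gm17092 (29.9, against 44.6 to 47.1) and for Mir130b (98.0, against 151 to 159). P23 library 1 had 359 on Neat1, against 277 to 284. The rule had named each of these genes only if its P23 and P04 libraries did not overlap, so that separation was set in advance.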

How the results depend on the processing

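None of the 2376 calls changed sign in any of the 13 alternatives of the fit that tested its gene, and 1981 to 2342 of them were called again. The numbers of risen and fallen genes were 1016 and 1237 with DESeq2, 1053 and 1316 with its size factors, 971 and 1382 when mRNA genes alone set the scale, 1157 and 1608 without the filter, and 986 and 1184 with only the 8 libraries. With each library left out they were 943 to 1120 and 1135 to 1345, lowest without P23 library 6. No scaling moved the median of all genes by more than 0.03 on the log2 scale.

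Small classes moved by more than 1.5 times. DESeq2 gave 11 fallen snRNAs, 2 risen and 1 fallen nuclear rRNA genes, 1 fallen other small RNA and 4 risen pseudogenes. Without the filter there were 20 risen lncRNAs, 1 fallen other small RNA, 8 risen and 17 fallen pseudogenes, and 47 risen and 140 fallen unclassified genes. With only the 8 libraries there were 2 risen nuclear rRNA genes and 6 fallen pseudogenes. Leaving out each library gave 9 to 16 risen snoRNAs, 10 to 19 fallen snRNAs, 0 to 2 risen and 1 to 4 fallen nuclear rRNA genes, 1 to 2 risen mitochondrial rRNAs, 0 to 1 risen other small RNAs, and 2 to 5 risen and 5 to 10 fallen pseudogenes. The cause was not tested.

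The P23 share over the P04 share depended on the total. Without nuclear rRNA it was 0.669 for snoRNA and 0.611 for miRNA (both now past the threshold, adjusted p = 0.0393, permutation) and 0.930 for other small RNA, which had been 1.08. Without mitochondrial genes it was 0.988 for protein coding mRNA, 0.832 for snRNA and 0.635 for unclassified genes, none past the threshold, and it turned above 1 for lncRNA (1.22), snoRNA (1.03), nuclear rRNA (1.01) and pseudogenes (1.04). Without both it was 0.999, 0.844 and 0.646, and 1.22, 1.04 and 1.05 for lncRNA, snoRNA and pseudogenes. These shares are bound to 1 total, so a rise of the mitochondrial part lowers the others by construction. With 1 library left out, no adjusted p passed (0.0571 to 0.0980, permutation, for the 7 classes that had passed). The smallest unadjusted p that 3 libraries against 4 allow is 0.0286, which leaves little room after adjustment over the classes. Any further cause was not tested. The ratios were 0.695 to 0.779 for protein coding mRNA, 0.592 to 0.656 for snRNA, 0.745 to 0.770 for nuclear rRNA, and 1.59 to 1.69, 2.58 to 2.74 and 2.09 to 2.62 for mitochondrial rRNA, tRNA and mRNA. They were 0.460 to 0.488 for unclassified genes and 0.987 to 1.20 for other small RNA, with the value below 1 when P23 library 5 was left out.

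Calls were followed gene by gene only for the genes named for the largest changes or the highest shares of counts. Of these, Mfsd11, Gm23388, Gm24233, Gm25107, Gm25852 and Snord23 lost their call in 1 or more settings. mt-Rnr1 passed in 4 settings when a library was left out. Other list members were followed through the counts of their lists. By these counts Fdps, Scarna6, Snhg14, Hist1h2bc and Rny1 also lost their calls in some settings, as given above. With DESeq2, for example, 0 cholesterol synthesis genes and 0 RNAs of Cajal bodies rose. Which members changed in longer lists was not followed. No paired analysis was possible because the columns carry animal numbers, which the labels do not tie between ages. Fragments of long RNAs were counted at modest depth, so low genes such as macrophage or lymphocyte markers rest on few counts, and a missing call does not show equal levels.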
